A study of Mus musculus with 15 samples.

Results

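The genes described here are 10 cytokine and chemokine genes of the B cell lineage: Ccl3, Ccl4, Ccl5, Ccl22, Cxcl10, Il6, Il10, Il12a, Ebi3 and Tgfb1. They were taken by symbol from a table of 21761 genes, and all 10 were among the 10866 genes that reached at least 1 RPKM (reads per kilobase of gene length, scaled to the counted reads of the library) in at least 3 of the 15 libraries. The cells came from the spleens of female wild-type C57BL/6J mice. B cells lacking CD43 were stimulated in culture for 3 days with lipopolysaccharide and the cytokines IL-5 and IL-2, and received either GSK-J4 at 250 nM or its solvent DMSO. They were then enriched on magnetic beads for CD138, a surface protein of plasmablasts, or for GL7, a surface epitope of activated B cells. The 5 groups of 3 libraries were CD138+ cells with GSK-J4, CD138+ cells with DMSO, GL7+ cells with GSK-J4, GL7+ cells with DMSO, and naive B cells that were neither stimulated nor treated. GSK-J4 inhibits KDM6A and KDM6B, the enzymes that remove methyl groups from lysine 27 of histone H3, and every cultured group carried the same stimuli. The labels assign the libraries to mouse 1, mouse 2 and mouse 3, except that 1 CD138+ GSK-J4 library, named replicate 4, could not be tied to a mouse.

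B cells secrete signals as well as antibody. CCL3, CCL4 and CCL5 draw T cells and myeloid cells, CCL22 binds CCR4 and draws T cells, and CXCL10 is an interferon-induced ligand of CXCR3. IL-6 drives germinal centre and plasma cell responses and is a pro-inflammatory product of activated B cells, whereas IL-10, TGF-beta 1 (encoded by Tgfb1) and IL-35, a pair of the subunits encoded by Il12a and Ebi3, are the suppressive products ascribed to regulatory B cells and plasmablasts. The product of Il12a also pairs with that of Il12b to form IL-12, and the product of Ebi3 also pairs with that of Il27 to form IL-27.

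Upstream sequence was available from RefSeq (build GRCm38.p6) for Ccl3, Ccl22, Cxcl10, Il6, Il12a, Ebi3 and Tgfb1, 7 of the 10 genes, with 8 annotated starts because Il12a has 2. The windows shown are those of 4 genes that passed the test for a change with GSK-J4, and that of Cxcl10. The 4 were Il6 and Ebi3 in CD138+ cells, where the Ebi3 call was not stable, and Ccl3 and Ccl22 in GL7+ cells. Cxcl10 held the most matches and its level did not pass the test. Each window is the 250 bases before the annotated start, 5′ to 3′ on the gene's own strand. Capitals mark matches on either strand to motifs of inducible transcription factors. The motifs searched were the NF-kB consensus, AP-1 (TGANTCA), the interferon-stimulated response element and C/EBP (TTGNNCAA). Matches to a motif that begin at different bases may overlap, and each is counted, whereas matches on both strands at the same bases count once. Of the 32851 upstream windows of the table, 7.25% held an NF-kB match, 6.75% an AP-1 match, 0.42% an interferon element and 5.65% a C/EBP match.
Il6, chr5:30012864-30013113, plus strand: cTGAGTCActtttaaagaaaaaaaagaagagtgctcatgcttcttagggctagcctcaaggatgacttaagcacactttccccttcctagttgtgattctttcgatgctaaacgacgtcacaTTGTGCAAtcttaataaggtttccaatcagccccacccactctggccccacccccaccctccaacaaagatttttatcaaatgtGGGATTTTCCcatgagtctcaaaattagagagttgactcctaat
Cxcl10, chr5:92348890-92349139, minus strand: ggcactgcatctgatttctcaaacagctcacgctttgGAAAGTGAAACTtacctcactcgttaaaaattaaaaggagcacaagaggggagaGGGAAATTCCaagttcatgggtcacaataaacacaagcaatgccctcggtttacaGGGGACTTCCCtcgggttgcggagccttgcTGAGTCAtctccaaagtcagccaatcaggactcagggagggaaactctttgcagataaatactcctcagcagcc
Ebi3, chr17:55952373-55952622, plus strand: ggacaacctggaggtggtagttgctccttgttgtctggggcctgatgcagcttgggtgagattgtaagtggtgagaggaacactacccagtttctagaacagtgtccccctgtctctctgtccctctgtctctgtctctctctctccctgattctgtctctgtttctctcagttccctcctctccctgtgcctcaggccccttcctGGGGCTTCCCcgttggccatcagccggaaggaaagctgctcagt
Ccl3, chr11:83649379-83649628, minus strand: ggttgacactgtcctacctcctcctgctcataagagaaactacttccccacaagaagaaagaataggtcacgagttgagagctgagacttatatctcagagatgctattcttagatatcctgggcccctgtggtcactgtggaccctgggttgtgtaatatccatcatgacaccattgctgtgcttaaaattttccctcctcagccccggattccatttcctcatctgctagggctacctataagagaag
Ccl22, chr8:94745434-94745683, plus strand: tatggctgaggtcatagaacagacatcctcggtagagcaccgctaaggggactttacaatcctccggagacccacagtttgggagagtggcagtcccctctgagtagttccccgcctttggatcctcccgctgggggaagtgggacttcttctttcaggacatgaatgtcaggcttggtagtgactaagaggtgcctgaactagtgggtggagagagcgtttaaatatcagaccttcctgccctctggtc
The Il6 window held 1 NF-kB match, 35 to 44 bases before the start, 1 C/EBP match and 1 AP-1 match. The Cxcl10 window held 3 NF-kB matches, 2 of which overlap each other, with 1 AP-1 match and 1 interferon element. The Ebi3 window held 1 NF-kB match, as did that of Tgfb1, which is not shown. Those of Ccl3, Ccl22 and both Il12a starts held none of the 4 motifs, and the Il12a windows are not shown although its level changed in GL7+ cells. These matches describe the letters of the windows and are not sites shown to be bound.

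Counted reads per library, recovered from the smallest steps of the RPKM values, ranged from 6241193 to 7712474 in CD138+ GSK-J4 libraries, from 9676767 to 11636276 in CD138+ DMSO libraries, from 9174725 to 12213678 in GL7+ GSK-J4 libraries and from 9806787 to 11519352 in GL7+ DMSO libraries. Naive libraries held 1318001 to 13190051 reads, and the shallowest of all, naive replicate 2, stood apart from the rest. The 5 B cell markers (Cd79a, Cd79b, Ms4a1, Cd22 and Pax5) were detected in all groups, and the summed level of 7 plasmablast markers was 4650 to 5005 RPKM in CD138+ GSK-J4 libraries and 4509 to 4750 RPKM in CD138+ DMSO libraries, against 1424 to 1567 RPKM in GL7+ GSK-J4 libraries, 1167 to 1304 RPKM in GL7+ DMSO libraries and 403 to 449 RPKM in naive libraries. The single markers did not all follow the order of the sums. In GL7+ DMSO cells 4 of the 7 were higher than in naive cells and 2 were lower. The lower ones were Sdc1, which encodes CD138 (mean 1.37 RPKM against 3.13 RPKM), and Irf4 (127 RPKM against 211 RPKM).

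With GSK-J4, GL7+ cells carried more Ccl3, Ccl4, Ccl22 and Il10 transcript and less Il12a. In CD138+ cells Il6 fell and Ebi3 rose by a small margin. The Ebi3 call was not stable: it was lost with the mouse as a replicate block and on leaving out any library of that comparison. Changes were tested with limma on log2(RPKM + 1) values over all 15 libraries, with Benjamini-Hochberg adjustment over all tested genes and a threshold of 0.05, and a fold on this scale understates the change of genes at low level. In GL7+ cells 5 of the 10 genes passed (4 higher, 1 lower), where 13.5% of all tested genes did (5.81% higher, 7.71% lower). In CD138+ cells 2 of the 10 passed (1 higher, 1 lower), which is close to the background of 13.2% of all tested genes (4.61% higher, 8.61% lower). The direction of the calls over all genes moved with the scaling: 43% of them were higher in GL7+ cells, against 58.7% with median-of-ratios scaling, and 34.9% in CD138+ cells, against 46.7% after quantile normalization. The count in CD138+ cells was unstable: it was 1 with the mouse as a replicate block, and lay between 1 and 6 when single libraries were left out, with 6 without naive replicate 2, a library outside that comparison. RNA came from bulk fractions, so a change in the proportion of producing cells and a change in transcript per cell cannot be told apart.

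**Figure D1:**
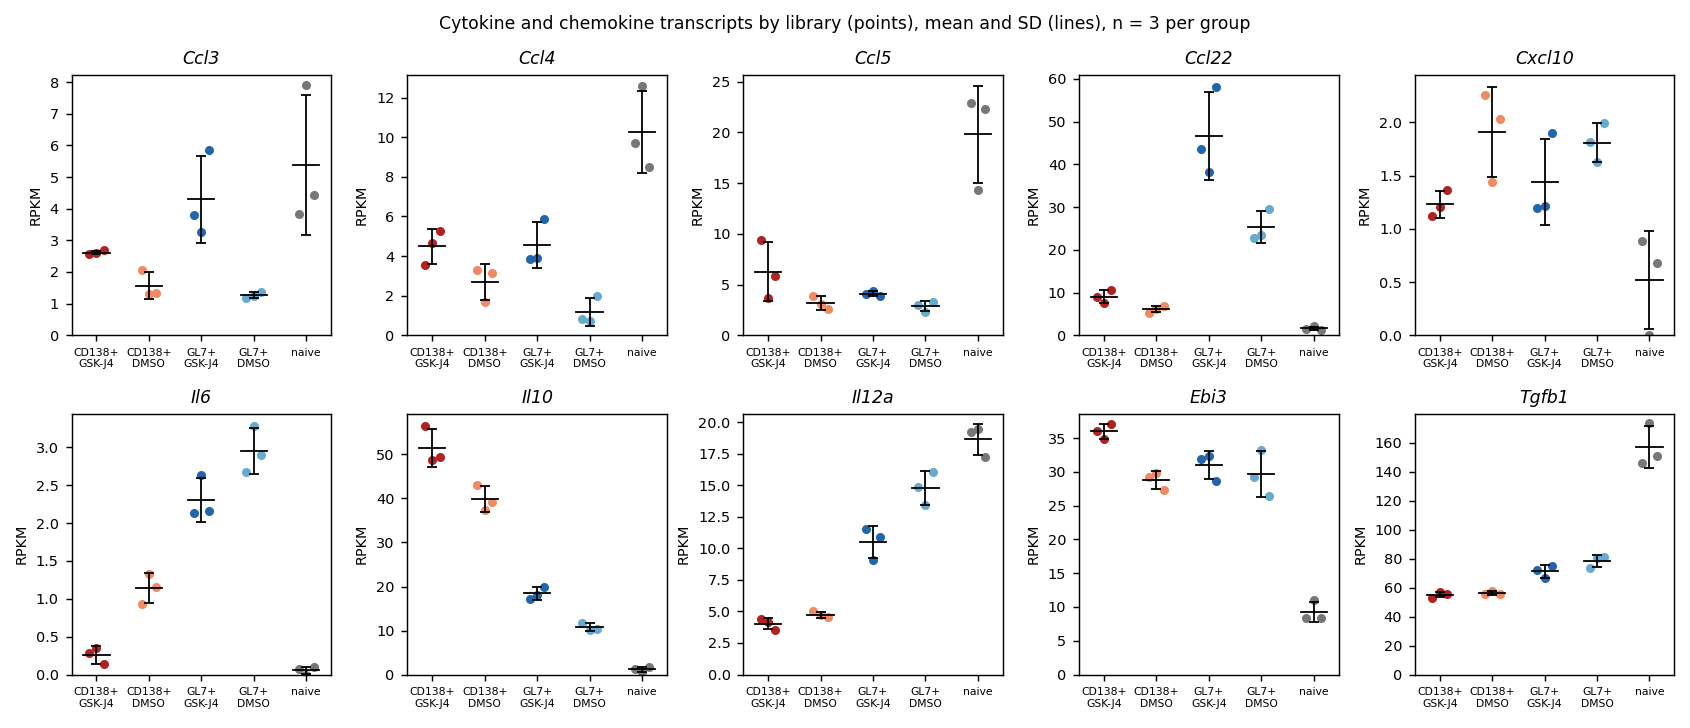
RPKM of each of the 10 genes in the 15 libraries. Each point is a library, the horizontal line is the mean of 3 and the bar is the SD. The GL7+ GSK-J4 points lie above the GL7+ DMSO points for Ccl3, Ccl4, Ccl22 and Il10, and the CD138+ GSK-J4 points for Il6 lie below all other cultured libraries.

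Ccl3, which encodes the chemokine MIP-1 alpha, stood at 3.79, 3.26 and 5.86 RPKM in the GL7+ GSK-J4 libraries, against 1.17, 1.25 and 1.37 RPKM in the GL7+ DMSO libraries. Every treated library lay above every DMSO library. The difference was 1.20 ± 0.20 on the log2 scale (SE, limma adjusted p = 0.0021), or 3.41-fold between the mean RPKM values. In CD138+ cells Ccl3 had 2.57, 2.59 and 2.68 RPKM with GSK-J4 and 2.06, 1.31 and 1.34 RPKM with DMSO. These groups did not overlap either, but the difference of 0.50 ± 0.20 did not pass (adjusted p = 0.12, 95% interval 0.07 to 0.94). It passed with library weights, with the voom fit of the recovered reads, with the contrast's groups alone and without naive replicate 2 (adjusted p 0.016 to 0.046). The gene length deposited for Ccl3, 2304 bases, exceeds the 1536 bases that the RefSeq gene spans, so its level relative to other genes may be understated, whereas comparisons between libraries share that length.

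Ccl4, which encodes the related chemokine MIP-1 beta, had 3.83, 3.91 and 5.87 RPKM in GL7+ cells with GSK-J4, against 0.839, 0.723 and 1.97 RPKM with DMSO. The groups were apart, and the DMSO values rested on 7, 6 and 14 reads. The difference was 1.37 ± 0.23 on the log2 scale (adjusted p = 0.0020), or 3.85-fold between means. In CD138+ cells Ccl4 had 3.54, 4.65 and 5.28 RPKM with GSK-J4 and 3.28, 1.66 and 3.14 RPKM with DMSO, a difference of 0.59 ± 0.23 that did not pass (adjusted p = 0.11, 95% interval 0.09 to 1.09). The fractions were apart in the proportion of these transcripts with GSK-J4 and overlapped with DMSO. The ratio of Ccl4 to Ccl3 RPKM was 1.38 to 1.97 in CD138+ GSK-J4 libraries and 1.27 to 2.34 in CD138+ DMSO libraries, against 1.00 to 1.198 in GL7+ GSK-J4 libraries and 0.577 to 1.44 in GL7+ DMSO libraries.

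Ccl5, encoding RANTES, was low in all cultured libraries. It had 9.35, 3.66 and 5.82 RPKM in CD138+ cells with GSK-J4 and 3.89, 3.08 and 2.57 RPKM with DMSO, so replicate 1 of the treated group stood highest and the groups overlapped. The difference of 0.74 ± 0.23 just missed the threshold (adjusted p = 0.052, 95% interval 0.23 to 1.24), and passed under 7 of the alternatives, among them both other scalings and the omission of treated replicate 2, without which it was 1.02. In GL7+ cells Ccl5 had 4.11, 4.31 and 3.86 RPKM with GSK-J4 and 2.94, 2.30 and 3.26 RPKM with DMSO. The groups did not overlap, yet the difference of 0.42 ± 0.23 did not pass (adjusted p = 0.27), except when the fit held the groups of the contrast alone (adjusted p = 0.020).

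Ccl22 was the most abundant of the chemokine transcripts in GL7+ cells. It stood at 43.5, 38.2 and 58.2 RPKM with GSK-J4 (635 to 1287 reads), against 22.9, 23.4 and 29.6 RPKM with DMSO (477 to 525 reads). All treated libraries exceeded all DMSO libraries, with replicate 3 highest in both groups. The difference was 0.85 ± 0.16 (adjusted p = 0.0041), or 1.85-fold between means. CD138+ cells had 9.02, 7.45 and 10.5 RPKM with GSK-J4 and 5.31, 6.22 and 6.74 RPKM with DMSO. Here too the groups were apart, and the difference of 0.49 ± 0.16 missed the threshold (adjusted p = 0.063, 95% interval 0.14 to 0.84), which it passed under 5 alternatives. Cxcl10 lay between 1.12 and 2.26 RPKM in all cultured libraries. It averaged 1.23 ± 0.127 RPKM in CD138+ GSK-J4 libraries and 1.91 ± 0.424 RPKM in CD138+ DMSO libraries, and 1.44 ± 0.402 RPKM in GL7+ GSK-J4 libraries and 1.81 ± 0.183 RPKM in GL7+ DMSO libraries (SD, n = 3 each). Neither difference passed (-0.37, limma adjusted p = 0.23, and -0.21, adjusted p = 0.52), although that in CD138+ cells passed with library weights (adjusted p = 0.033).

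Il6, the pro-inflammatory cytokine of the 10, fell in CD138+ cells. It had 0.291, 0.353 and 0.133 RPKM with GSK-J4, from 6, 9 and 3 reads, against 0.938, 1.33 and 1.16 RPKM with DMSO, from 30, 51 and 42 reads. The treated libraries were all below the DMSO libraries, and the difference of -0.77 ± 0.10 passed (adjusted p = 2.9e-04). Its adjusted p lay between 5.8e-05 and 0.0030 over the alternatives that tested it. With only the groups of the contrast in the fit it did not pass the filter on low values and was not tested. The ratio of mean RPKM values was 0.227. In GL7+ cells Il6 had 2.13, 2.64 and 2.16 RPKM with GSK-J4 and 2.68, 3.28 and 2.90 RPKM with DMSO. These groups were apart by a narrow margin, and the difference of -0.26 ± 0.10 did not pass (adjusted p = 0.12, 95% interval -0.48 to -0.04) except with library weights (adjusted p = 0.046). Beside the changes in CD138+ cells, 4 of the 5 B cell markers also fell there with GSK-J4, where 8.61% of all tested genes did. These were Cd22 (-1.54), Pax5 (-0.99), Ms4a1 (-0.61) and Cd79b (-0.22). All 5 B cell markers summed to 750 to 792 RPKM in CD138+ GSK-J4 libraries, against 942 to 1003 RPKM in CD138+ DMSO libraries. In GL7+ cells 2 of the 5 B cell markers fell, Cd79b (-0.38) and Cd22 (-0.54), where 7.71% of all tested genes did. The part of these shifts in the results for Il6 and the other genes was not tested.

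Il10, the best known suppressive cytokine of B cells, rose in the GL7+ fraction. It had 17.2, 18.1 and 19.9 RPKM with GSK-J4, against 11.8, 10.04 and 10.4 RPKM with DMSO. All 3 mice showed the difference, with per-mouse changes of 0.51, 0.79 and 0.88 on the log2 scale. The mean change was 0.73 ± 0.14 (adjusted p = 0.0049), and only with a pseudocount of 0.1 did the adjusted p, 0.052, miss the threshold. In CD138+ cells Il10 had 56.4, 48.6 and 49.4 RPKM with GSK-J4 and 43.0, 37.4 and 39.1 RPKM with DMSO. These values did not overlap, but the difference of 0.36 ± 0.14 did not pass (adjusted p = 0.12, 95% interval 0.05 to 0.67). It passed under 5 alternatives, with an adjusted p of 0.0013 in the voom fit. Beside the change in GL7+ cells, 5 of the 7 plasmablast markers also rose there with GSK-J4, where 5.81% of all tested genes did. They were Irf4, Jchain, Sdc1, Prdm1 and Xbp1, by 0.34 to 0.71 on the log2 scale. The Prdm1 call was lost with a pseudocount of 0.1 and without GL7+ GSK-J4 replicate 2 or GL7+ DMSO replicate 2 or 3. None of the 7 passed in CD138+ cells. The part of these markers in the Il10 result was not tested.

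Il12a, the p35 subunit, fell in GL7+ cells. It had 11.5, 9.04 and 10.9 RPKM with GSK-J4, against 14.9, 13.4 and 16.1 RPKM with DMSO, and every treated library lay below every DMSO library. The difference was -0.46 ± 0.09 (adjusted p = 0.0056), a ratio of means of 0.708. In CD138+ cells it had 4.43, 4.12 and 3.56 RPKM with GSK-J4 and 5.003, 4.70 and 4.53 RPKM with DMSO, a difference of -0.19 ± 0.09 that did not pass (adjusted p = 0.20). Ebi3, its partner in IL-35, had 36.1, 34.9 and 37.1 RPKM in CD138+ cells with GSK-J4, against 29.3, 29.9 and 27.3 RPKM with DMSO. The groups were apart and the change was small, 0.31 ± 0.09 (adjusted p = 0.043). The call was lost with mouse as a replicate block (0.24, adjusted p = 0.10), with a pseudocount of 0.1, without the filter on low values, after quantile normalization, and without any 1 of 9 libraries, which were all 6 of the contrast, GL7+ GSK-J4 replicates 1 and 2 and GL7+ DMSO replicate 1. Over these 13 alternatives the adjusted p was 0.051 to 0.14. In GL7+ cells Ebi3 had 31.9, 32.4 and 28.6 RPKM with GSK-J4 and 29.3, 33.3 and 26.5 RPKM with DMSO, overlapping groups that differed by 0.06 ± 0.09 (adjusted p = 0.72, 95% interval -0.14 to 0.27).

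The ratio of Ebi3 to Il12a RPKM differed with both the fraction and the treatment. It was 8.15 to 10.4 in CD138+ GSK-J4 libraries, against 5.86 to 6.36 in CD138+ DMSO libraries, and 2.63 to 3.58 in GL7+ GSK-J4 libraries, against 1.65 to 2.48 in GL7+ DMSO libraries. Naive libraries, in which Il12a exceeded Ebi3, had ratios of 0.437 to 0.567. None of the 5 ranges overlapped another, and no test was made of this ratio. Il12b, the other partner of Il12a, averaged at most 0.0330 RPKM in any cultured group, and Il27 averaged 0.407 RPKM in CD138+ GSK-J4 libraries and 0.300 RPKM in CD138+ DMSO libraries, against 1.42 RPKM (0.281 to 2.01) in GL7+ GSK-J4 libraries and 0.329 RPKM (0.00 to 0.739) in GL7+ DMSO libraries; neither gene passed the filter.

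**Figure D2:**
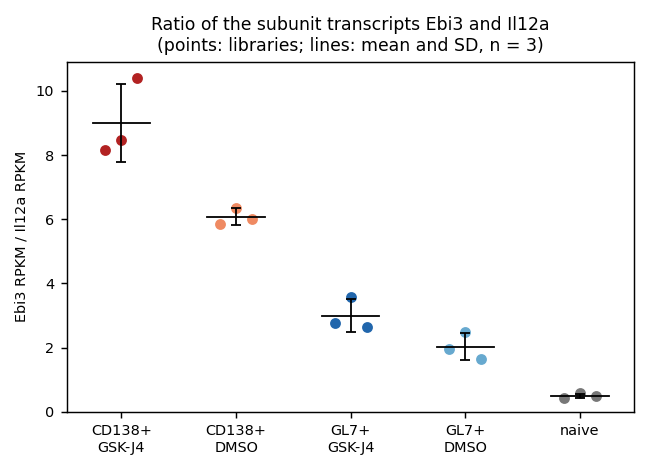
Ratio of Ebi3 RPKM to Il12a RPKM in each library. Points are libraries, horizontal lines are means and bars are SDs of 3 libraries; in each fraction the GSK-J4 points lie above the DMSO points, and the naive libraries lie between 0.437 and 0.567.

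Tgfb1 had the highest mean RPKM of the 10 transcripts in every group. It had 53.1, 56.7 and 55.8 RPKM in CD138+ cells with GSK-J4 and 55.5, 57.7 and 55.7 RPKM with DMSO. In GL7+ cells it had 72.4, 66.4 and 74.6 RPKM with GSK-J4 and 73.5, 80.3 and 81.2 RPKM with DMSO. Both pairs of groups overlapped, and the differences were -0.03 ± 0.07 (adjusted p = 0.84, 95% interval -0.17 to 0.11) and -0.14 ± 0.07 (adjusted p = 0.19, 95% interval -0.28 to 0.00).

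**Figure D3:**
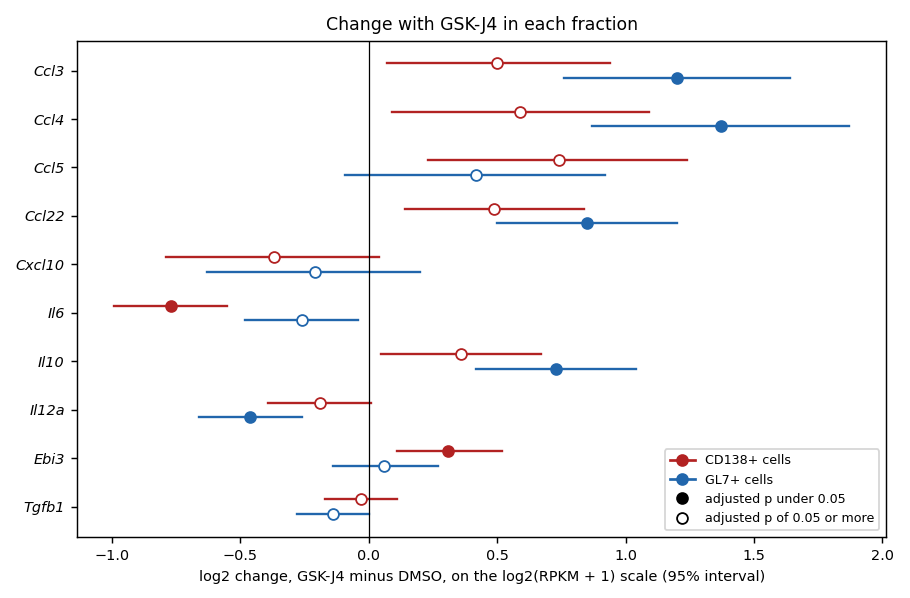
Log2 change with GSK-J4 relative to DMSO for each of the 10 genes in CD138+ and GL7+ cells, on the log2(RPKM + 1) scale, with 95% intervals. Filled points passed an adjusted p of 0.05; Ccl3, Ccl4, Ccl22 and Il10 lie above 0 and Il12a below 0 in GL7+ cells, and Il6 lies below 0 in CD138+ cells.

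The difference between the GSK-J4 effects of the fractions was tested directly, as the change in CD138+ cells minus the change in GL7+ cells. None of the 10 genes passed in the limma fit, where 0.966% of all tested genes did. At an unadjusted p under 0.05 there were 3, Ccl3 (-0.69 ± 0.29), Ccl4 (-0.78 ± 0.33) and Il6 (-0.51 ± 0.15), with adjusted p-values of 0.30, 0.31 and 0.12. Il6 passed with library weights (-0.48, adjusted p = 0.032) and in the voom fit, which is on a scale without the pseudocount of 1 (-1.75, adjusted p = 0.0086). For Il10 the difference was -0.37 ± 0.20 (95% interval -0.80 to 0.07), and for Ccl22 -0.36 ± 0.23 (95% interval -0.85 to 0.13). A gene that passed in 1 fraction alone is therefore not shown to differ in its response between fractions.

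The fractions themselves differed in the 10 genes under either agent. With DMSO, 6 of the 10 differed between CD138+ and GL7+ cells (2 higher and 4 lower in CD138+ cells), where 58.7% of all tested genes did (21.8% higher, 36.9% lower, a share of higher calls of 37.2%, against 49.6% with median-of-ratios scaling). With GSK-J4, 6 differed (1 higher, 5 lower), where 63% of all tested genes did (24% higher, 39% lower). Both counts are near the background. Il10 averaged 39.8 ± 2.90 RPKM in CD138+ cells and 10.7 ± 0.914 RPKM in GL7+ cells with DMSO (SD, n = 3 each; log2 difference 1.80, limma adjusted p = 8.4e-08), and the difference with GSK-J4 was 1.43 (adjusted p = 7.2e-07). Ccl22 went the other way, with 6.09 ± 0.724 RPKM in CD138+ cells and 25.3 ± 3.73 RPKM in GL7+ cells with DMSO (-1.89 with DMSO and -2.24 with GSK-J4). Il12a (-1.46 with DMSO and -1.19 with GSK-J4), Il6 (-0.89 and -1.39) and Tgfb1 (-0.47 and -0.36) were lower in CD138+ cells under both agents, at adjusted p-values of at most 2.3e-04. Ccl4 was higher in CD138+ cells with DMSO alone (0.77, adjusted p = 0.010; 0.63 and adjusted p = 0.052 without GL7+ DMSO replicate 2). Ccl3 was lower in CD138+ cells with GSK-J4 alone (-0.52, adjusted p = 0.037), a call lost with the mouse as a replicate block (adjusted p = 0.11) and in 7 other alternatives, at -0.32 without GL7+ GSK-J4 replicate 3. Ebi3 and Cxcl10 did not pass in either comparison, although Ebi3 with GSK-J4 (0.21, adjusted p = 0.063) did in 7 alternatives. Ccl5 passed in neither as well (0.44 with GSK-J4, adjusted p = 0.12), but passed with GSK-J4 without CD138+ GSK-J4 replicate 2 (0.72, adjusted p = 0.0088).

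All 10 genes differed between cultured and naive B cells, 5 higher and 5 lower in each fraction with DMSO. Of all tested genes, 83.4% differed in CD138+ cells (39.9% higher, 43.5% lower) and 81.7% in GL7+ cells (41.3% higher, 40.3% lower), so such differences were the rule. Both comparisons share the naive libraries. Il10, Ccl22, Il6, Ebi3 and Cxcl10 were higher in both cultured fractions, and Ccl3, Ccl4, Ccl5, Tgfb1 and Il12a were lower. Il10 averaged 39.8 RPKM in CD138+ cells and 10.7 RPKM in GL7+ cells with DMSO, against 1.16, 0.581 and 1.74 RPKM in naive B cells, from only 20, 1 and 14 reads. Ccl22 averaged 25.3 RPKM in GL7+ cells with DMSO, against 1.42, 2.10 and 1.25 RPKM in naive B cells, from 34, 5 and 14 reads. Ebi3 averaged 28.8 RPKM in CD138+ cells and 29.7 RPKM in GL7+ cells with DMSO, against 8.42, 11.0 and 8.44 RPKM in naive B cells, and its log2 differences of 1.54 and 1.58 were close to each other. For Il6 the naive libraries held 3, 0 and 2 reads and for Cxcl10 25, 0 and 9 reads, so no fold is given.

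Of the genes that were lower after culture, Ccl5 had 3.89, 3.08 and 2.57 RPKM in CD138+ cells and 2.94, 2.30 and 3.26 RPKM in GL7+ cells with DMSO, against 22.8, 14.3 and 22.3 RPKM in naive B cells. The log2 differences were -2.30 and -2.42. Those of Ccl4 were -1.62 in CD138+ cells and -2.40 in GL7+ cells, those of Ccl3 -1.27 and -1.44, and those of Tgfb1 -1.46 and -0.99. Il12a differed little in GL7+ cells (-0.32, adjusted p = 0.0061) and more in CD138+ cells (-1.77). Several lists of markers of other blood cells were also lower after culture. The summed level of 8 NK cell markers was 0.419 to 1.11 RPKM in CD138+ DMSO libraries and 0.404 to 0.821 RPKM in GL7+ DMSO libraries, against 5.99 to 6.83 RPKM in naive libraries, and Ncr1 was at 0 in the GL7+ DMSO libraries. The 9 myeloid markers in the table summed to 5.71 to 8.86 RPKM in CD138+ DMSO libraries and 10.6 to 14.001 RPKM in GL7+ DMSO libraries, against 70.1 to 107 RPKM in naive libraries. Most of that naive sum was Lyz2, which averaged 61.7 RPKM there. The 9 T cell markers in the table summed to 8.63 to 9.08 RPKM and 4.02 to 4.55 RPKM in these cultured groups, against 22.9 to 28.3 RPKM in naive libraries. Most of that naive sum was Lck, which averaged 15.7 RPKM there. Cd3e was at 0 in both cultured groups, against a mean of 0.786 RPKM in naive libraries. By contrast, Cd28 averaged 7.56 RPKM in CD138+ DMSO libraries and 0.853 RPKM in GL7+ DMSO libraries, against 0.388 RPKM in naive libraries. The 8 dendritic cell markers summed to 10.8 to 12.1 RPKM and 33.8 to 34.8 RPKM, against 30.4 to 37.2 RPKM in naive libraries, so the GL7+ DMSO sum lay within the naive range. Within this list Flt3 averaged 9.78 RPKM in CD138+ DMSO libraries and 31.6 RPKM in GL7+ DMSO libraries, against 6.35 RPKM in naive libraries, whereas Itgax averaged 0.0820 RPKM and 0.0230 RPKM in these cultured groups, against 14.1 RPKM in naive libraries. The part of these cells in the naive levels was not tested.

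Receptors, partners and regulators of the 10 genes were examined as lists. Of 14 receptor genes, 10 were tested. In CD138+ cells 4 fell with GSK-J4 (8.61% of all tested genes were lower and 4.61% higher), and in GL7+ cells 1 rose and 3 fell (5.81% of all tested genes were higher and 7.71% lower). The list medians were -0.02 in each fraction, against -0.03 in CD138+ cells and -0.01 in GL7+ cells over all tested genes. Il10ra, the ligand-binding chain of the IL-10 receptor, averaged 5.64 ± 0.158 RPKM with GSK-J4 and 10.9 ± 0.780 RPKM with DMSO in CD138+ cells, and 23.2 ± 3.53 RPKM with GSK-J4 and 37.0 ± 3.51 RPKM with DMSO in GL7+ cells (SD, n = 3 each). The changes were -0.84 ± 0.10 (limma adjusted p = 1.4e-04) and -0.65 ± 0.10 (adjusted p = 0.0012), opposite in sign to that of Il10 in GL7+ cells. Il27ra, the receptor chain for IL-27, fell by 0.74 and 0.80 in the CD138+ and GL7+ fractions, and Tgfbr2, the ligand-binding receptor for TGF-beta, fell by 0.30 in both. Il12rb1, a chain of the IL-12 receptor, was the fourth to fall in CD138+ cells (-0.50, adjusted p = 0.024). It averaged only 0.267 RPKM with GSK-J4 and 0.789 RPKM with DMSO there. No CD138+ library reached 1 RPKM, and the gene passed the filter through the GL7+ libraries alone. Tgfbr1, the signalling receptor for TGF-beta, rose in GL7+ cells, with 4.26 ± 0.387 RPKM with GSK-J4 and 3.37 ± 0.291 RPKM with DMSO (SD, n = 3 each; 0.27, limma adjusted p = 0.037). Its call was lost under 9 alternatives (adjusted p 0.050 to 0.15): with the mouse as a replicate block (0.27, adjusted p = 0.051), without the filter, with the contrast's groups alone, and without GL7+ GSK-J4 replicate 2 or 3, GL7+ DMSO replicate 2 or 3 or CD138+ DMSO replicate 2 or 3.

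Of 12 partner subunits and TGF-beta activators, 4 were tested. In CD138+ cells Itgav, the integrin alpha V chain, rose (0.38, adjusted p = 0.0077). Lrrc32, which anchors latent TGF-beta on the cell surface, fell there (-0.59, adjusted p = 0.024), a call lost in 6 alternatives, among them the omission of CD138+ GSK-J4 replicate 2 or 4 and of CD138+ DMSO replicate 1 or 3. In GL7+ cells Itgav was at 0.24 (adjusted p = 0.069) and Lrrc32 at 0.13 (adjusted p = 0.65), and neither passed. Of 49 other cytokine and chemokine ligands, 10 were tested and 1, Il16, passed in each fraction, at -0.27 in CD138+ cells and -0.29 in GL7+ cells. That count is near the background, as 13.2% of all tested genes passed in CD138+ cells and 13.5% in GL7+ cells. All 16 transcriptional regulators were tested. In CD138+ cells 7 fell, where 8.61% of all tested genes did, and 5 with the mouse as a replicate block. The 7 included Irf8 (-0.53), Nfkb1 (-0.36) and Nfkb2 (-0.39), which encode the NF-kB precursors p105 and p100, and Batf (-0.58), an AP-1 family factor. The others were Bhlhe40 (-0.84), Relb (-0.30) and Nfil3 (-0.32). Irf8, Nfkb1, Nfkb2 and Batf kept their calls with the block, so the calls lost there were among these others. In GL7+ cells 4 fell and 2 rose, where 7.71% of all tested genes fell and 5.81% rose, with Nfkb2 (-0.39), Irf8 (-0.31), Relb (-0.32) and Bhlhe40 (-0.50) lower and Irf4 (0.39) and Prdm1 (0.40), drivers of plasma cell differentiation, higher. The number that rose was 1 with a pseudocount of 0.1 and without GL7+ GSK-J4 replicate 2, GL7+ DMSO replicate 2 or GL7+ DMSO replicate 3. Irf4 kept its call in every alternative, so Prdm1 was the gene that lost it there. Both were also counted above as plasmablast markers. The count that fell in GL7+ cells was 1 without GL7+ GSK-J4 replicate 2. It was 2 without GL7+ GSK-J4 replicate 3, GL7+ DMSO replicate 1 or GL7+ DMSO replicate 2. Relb and Bhlhe40 lost their calls under each of these omissions, and Irf8 lost its call without GL7+ GSK-J4 replicate 2.

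**Figure D4:**
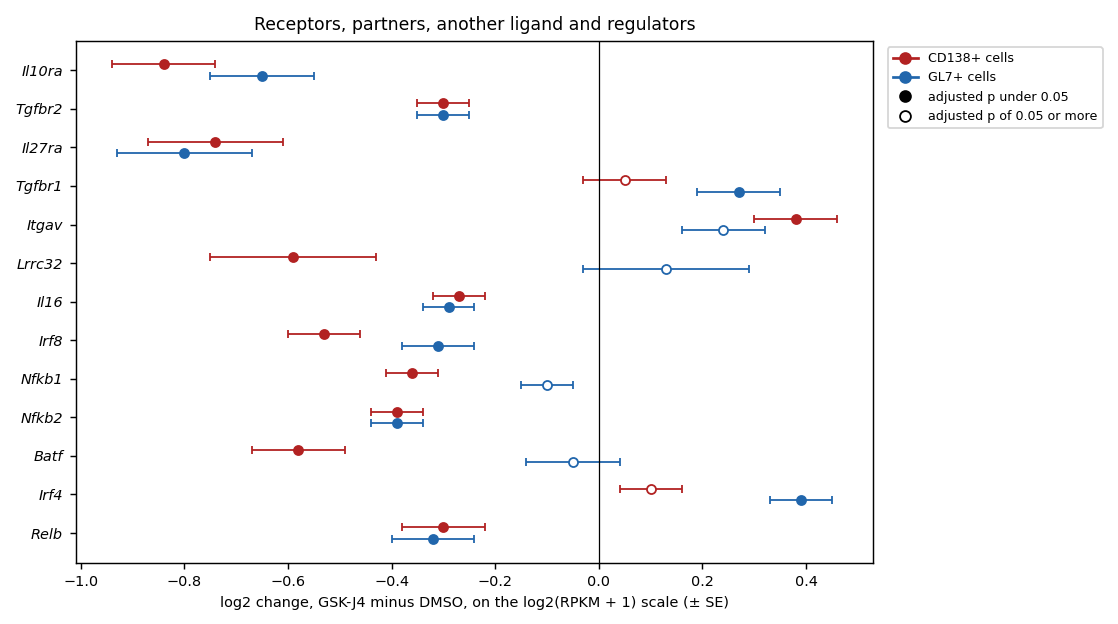
Log2 change with GSK-J4 relative to DMSO, ± SE, for the named receptors (Il10ra to Tgfbr1), partners (Itgav, Lrrc32), another ligand (Il16) and regulators (Irf8 to Relb) in CD138+ and GL7+ cells. Filled points passed an adjusted p of 0.05; Il10ra lies at -0.84 in CD138+ cells and -0.65 in GL7+ cells.

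For each gene the 3 tested genes with the most similar pattern were found by Pearson correlation of log2(RPKM + 1) over the 15 libraries, which is a description and mostly reflects the 5 groups. Il10 was nearest to Hspa5, Pdia3 and Hsp90b1, chaperones of the endoplasmic reticulum (r = 0.997 each). Il12a was nearest to Sp110 (0.994), Tgfb1 to B4galnt1 (0.997), Ebi3 to Rad18 (0.991), Il6 to Qdpr (0.988), Ccl22 to Actn4 (0.987), Ccl5 to Camsap2 (0.973) and Cxcl10 to Cenpa (0.933). Ccl3 and Ccl4 shared the same nearest gene, Pkib (0.916 for Ccl3 and 0.921 for Ccl4), and Ccl4 was the third nearest to Ccl3 (0.881).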

How the data were processed

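Polyadenylated RNA of 15 libraries was sequenced by the authors after a KAPA mRNA library preparation, per the labels' protocols. The deposited table holds RPKM values per gene, made by the authors, and gene lengths. TopHat2 and the mouse build mm9 are named in the submitters' processing notes. The aligner version, read counter, annotation, strand setting and any filter are not given in the sources used. The steps of the deposited RPKM values gave the depth and the reads: of values up to 20 reads, at least 99.9% in each library came out whole within 0.1.

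The RPKM values were log2-transformed with a pseudocount of 1 and fitted with limma 3.58.1 in R 4.3.3 (a mean per group, eBayes with trend, two-sided), and a gene was tested where 3 or more libraries reached 1 RPKM. All 10 genes were described in every comparison. Of each list, at most 4 genes per comparison were named by smallest adjusted p, provided that the higher group averaged 1 RPKM or more. The genes and lists were chosen with earlier results of these data known. Some genes of the lists are not reported here. Plasmablast markers, Il27, Il12b, Il12rb1, Bhlhe40, Nfil3 and other genes outside this rule were named after their values were seen. The fit was also run on simulated reads of independent libraries. The simulated libraries shared no mice, so that run does not show how reliable the calls are here. No replicate libraries were identical. Each p-value sets a difference of group means, of 3 libraries per group, against a residual spread. That spread was pooled over all groups in the fit and moderated by eBayes, so libraries outside a comparison also bear on its p-values.

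Labels give the same mouse numbers in each group. Deviations from group means had a median correlation of 0.072 between libraries of the same mouse (26 pairs, -0.039 to 0.191) and -0.032 between libraries of different mice (52 pairs), and the shared mouse makes the libraries paired by design. The mouse as a replicate block was therefore tried, with replicate 4 of the CD138+ GSK-J4 group as a level of its own. A level with 1 library is fitted exactly, so the CD138+ GSK-J4 mean rested on replicates 1 and 2 there. Leaving replicate 4 out without a block gave 996 limma calls with GSK-J4 in CD138+ cells, against 927 with the block. Ebi3 in CD138+ cells (adjusted p = 0.12) and Ccl3 between fractions with GSK-J4 (adjusted p = 0.068) lost their calls there too. The effect of the mouse was not separated from that of losing this library. Other alternatives were a pseudocount of 0.1, no filter, a filter of 6 libraries, median-of-ratios scaling, quantile normalization, library weights, voom on recovered reads, only the groups of the contrast, and each library left out. For the lists these were added after seeing the data.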

Additional observations from a re-analysis of the deposited data

How the results depend on the processing

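Of 1678 changes of the 10 genes recomputed under alternatives, 1608 kept their direction and their side of the threshold, 23 lost and 34 gained a call, and 13, none of them called, changed sign. For these 13 the cause was not tested. With GSK-J4 in GL7+ cells, Ebi3 ranged from -0.01 (without GL7+ DMSO replicate 3) to 0.15 when single libraries were left out. Between CD138+ and GL7+ cells with DMSO, Ebi3 was at 0.07 with median-of-ratios scaling, 0.03 after quantile normalization and -0.11 to 0.05 with single libraries left out, 0.00 without CD138+ DMSO replicate 3 and 0.05 without GL7+ DMSO replicate 2. Cxcl10 ranged from -0.05 (without CD138+ DMSO replicate 1) to 0.16, and was at -0.01 without GL7+ DMSO replicate 2. Between fractions with GSK-J4, Ccl4 was at 0.07 with median-of-ratios scaling, 0.08 after quantile normalization, 0.05 with library weights, 0.12 without CD138+ GSK-J4 replicate 1, and -0.11 to 0.16 over single libraries, highest without GL7+ GSK-J4 replicate 3, where Cxcl10, otherwise down to -0.19, was at 0.01.

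The number of the 10 genes that passed with GSK-J4 in CD138+ cells was 1 with a pseudocount of 0.1, without a filter and with the replicate block, 4 with only the groups of the contrast, where Il6 did not pass the filter and was not tested, and 5 with library weights and with voom. Leaving out single libraries gave 1 to 6 there, 5 to 5 in GL7+ cells, 0 to 0 for the difference of effects, 5 to 6 and 5 to 7 between fractions with DMSO and GSK-J4, and 10 to 10 against naive cells. The difference of effects held 1 gene, Il6, with library weights and with voom. The replicate block changed no other call of the 10 genes besides Ebi3 with GSK-J4 in CD138+ cells and Ccl3 between fractions with GSK-J4.

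Over all tested genes, 1437 passed with GSK-J4 in CD138+ cells, against 2688 with library weights, 927 with the replicate block, 2182 without naive replicate 2 and 825, 825 and 864 without each CD138+ DMSO replicate. In GL7+ cells 1469 passed, against 2968 with library weights, 2614 with voom, 2256 with only the groups of the contrast, 2281 without naive replicate 2 and 743 to 839 without each of 4 libraries of the contrast. For the difference 105 passed, against 832 with library weights, 430 with voom, 462 with only the groups of the contrast, 53 without a filter, 32 with the replicate block, 361 without naive replicate 2 and 18 to 66 without each of 11 other libraries.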
